A study of Mus musculus with 60 samples.

Results

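The 48 genes described here code for actin, for the proteins that build, cross-link and pull on actin filaments, for the integrins and membrane linkers that anchor them, and for related regulators of cell movement. They were chosen by symbol, and each gene was read from 1 probe, the one with values on most arrays. Of the 48 genes, 46 had a probe (Arpc3 and Tpm4 did not), among 14442 genes with a probe in the series. The probes of 40 members passed the filter on missing values and were tested. Those of Pfn1, Itgb1, Itgb4, Cd9, Vim and Iqgap1 did not pass it, and their values are given without a test.

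Actin monomers are assembled into filaments at the leading edge of a moving cell. Myosin II pulls on filaments that tropomyosins stabilise and alpha-actinins cross-link. Integrins bind the matrix outside the cell, and adaptors such as vinculin, talin and zyxin couple them to actin inside, while ezrin, radixin and moesin tie actin to the rest of the cell membrane. Hepatocyte growth factor (HGF), also called scatter factor, acts through the receptor tyrosine kinase Met and makes epithelial cells spread and move. Actin genes are also textbook targets of serum response factor, which binds the CArG box.

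The cells were primary hepatocytes from the livers of male mice aged 9 to 10 weeks, kept without serum overnight and then given HGF at 50 ng/ml, as the protocol states. The control group (WT here) was labelled Cre Control on a C57BL background, and the labels of some of its samples add heterozygous Cre recombinase. The knock-out group (KO here) was Alb-Cre +/-; Met Fl/Fl on a 129SV/C57BL6 background, so strain and genotype cannot be told apart. Alb-Cre acts in hepatocytes. Each genotype was sampled untreated and after 0.5, 2, 12 and 24 h of HGF, with 3 replicates from individual mice in each of the 10 groups. For every replicate 2 arrays with exchanged dyes set its RNA against a pool of WT hepatocyte RNA, and its value is the mean log2 ratio of that pair, taken as sample over reference. This direction is likely but is not stated in the sources used here. Untreated cultures kept for the same number of hours were not analysed here, and the length of culture cannot be told apart from HGF. In these bulk samples fewer cells of a type and less RNA per cell cannot be told apart.

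Between 17356 and 21511 of the 21997 probes had a value on each of the 60 arrays. The test covered 14580 probes. The number of arrays limits the precision. Array numbers form 4 sets (A, B, C and D): the 12 h arrays all lie in C, the 0.5 h arrays in D, the 2 h arrays in D except KO replicate 3 (A), and the untreated and 24 h arrays mostly in C, with replicate 3 of each in A or B and the Cy3 array of WT 24 h replicate 2 in B (that replicate is counted as C). Untreated WT replicate 3, whose Cy5 array has an unsettled direction, and KO 24 h replicate 2, whose values scatter most, are referred to as the doubted replicates. The arrays of a dye pair correlated at r = -0.584 to 0.222 over probes as deposited, with the lowest values in KO at 0.5 h. Of 60 called differences among the members, 58 had the same sign on the Cy5 and on the Cy3 arrays. Those of Arpc2 and Lgals3 in WT at 12 h did not. The calls rest on the mean of both dyes, so this count does not test whether the dyes agree. Met itself, on 1 probe of unknown position relative to the deleted exons, differed between KO and WT by -0.03 ± 0.19 (SE) untreated and 0.30 ± 0.19 at 24 h, with no call at any time. Ratios to a hepatocyte reference give no absolute level of any marker, so the cell type label could not be checked by level. The 8 hepatocyte markers tested had a median difference from untreated of -0.70 in WT and -0.69 in KO at 12 h, and -0.72 and -0.76 at 24 h, with 3 called lower at each time in WT and 1 and 4 in KO.

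Late in the HGF response, WT hepatocytes had higher levels of Msn (a membrane linker), Itga3 (an integrin subunit), Actn1 (an alpha-actinin), Tpm1 (a tropomyosin), Cfl1 (which severs actin), Clic1 and Lgals3, at 12 and at 24 h. At 12 h, 11 of the 40 tested members were higher than in untreated WT cells and 0 were lower, at a Benjamini-Hochberg adjusted p under 0.05 over all probes in limma, and 19 were higher and 1 lower at an unadjusted p under 0.05. Over all 14580 probes 2.65% were called higher and 3.16% lower. The median difference of the 40 members was 0.36, beside 0.02 for all probes. At 24 h, 8 members were higher and 3 lower, beside 3.96% and 4.76% of all probes. Msn, coding for moesin, led at both times, with 2.89-fold at 12 h and 3.18-fold at 24 h. The 12 and 24 h comparisons share the untreated samples.

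The KO hepatocytes showed few such calls. At 12 h in KO only Lgals3 was called higher and 0 members lower (5 and 1 at an unadjusted p under 0.05 in limma), beside 0.0206% and 0.11% of all probes, and the median of the 40 was 0.08. At 24 h Lgals3 was higher and Actg1 lower, beside 0.535% and 2.94% of all probes. The difference between the responses, KO minus WT, was itself tested. At 12 h it was called for Clic1 and Itga3, both with a smaller rise in KO, and for 0 members with a larger one (8 and 0 at an unadjusted p under 0.05 in limma), beside 0.0617% and 0.0137% of all probes. At 24 h it was called for Clic1, Msn, Tmsb10 and Itga3, again all lower, with 0 higher (11 lower and 1 higher unadjusted), beside 0.412% and 0.316%. The median difference of responses was -0.25 at 12 h and -0.20 at 24 h, beside -0.01 and 0.00 for all probes. For the remaining members a smaller response in KO was not shown. The 24 h count for KO was 1 without untreated replicate 1 or 2 or 24 h replicate 2, and 4 without 24 h replicate 3.

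The tested differences of the responses, KO minus WT, were -1.39 ± 0.27 for Clic1 (adjusted p = 0.0363) and -0.83 ± 0.16 for Itga3 (adjusted p = 0.0249) at 12 h. At 24 h they were -1.22 ± 0.27 for Clic1 (adjusted p = 0.0274), -1.11 ± 0.24 for Msn (adjusted p = 0.0281), -1.01 ± 0.21 for Tmsb10 (adjusted p = 0.0172) and -0.89 ± 0.16 for Itga3 (adjusted p = 0.00375). Of these, Itga3 at 24 h kept its call without each of the 12 replicates in turn (-0.95 to -0.83), but lost it on either dye alone (-1.11 on Cy5 and -0.67 on Cy3), with the doubted array's sign turned (-0.60), with only the groups compared and with weights. Tmsb10 lost it without WT 24 h replicate 2, Msn without WT 24 h replicate 1, untreated KO replicate 1 or 2 or KO 24 h replicate 3, and Clic1 at 24 h without any 1 of 5 replicates. On a single dye, Tmsb10 lost it on Cy5 (-1.41) and on Cy3 (-0.57), Clic1 at 24 h on Cy5 (-1.54) and on Cy3 (-0.89), and Msn on Cy3 (-0.20). Each also lost it with weights and with only the groups compared. Tmsb10 and Clic1 lost it with the sign turned, and Tmsb10 with array set as a term (-0.87, adjusted p = 0.0677 in limma). At 12 h the call was lost without 9 of the 12 replicates for Clic1 and without 10 for Itga3, and for both on either dye alone. Without both doubted replicates 0 differences were called at 12 h and 2 at 24 h, and with arrays scaled to a common spread limma called 0 at either time.

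**Figure D1:**
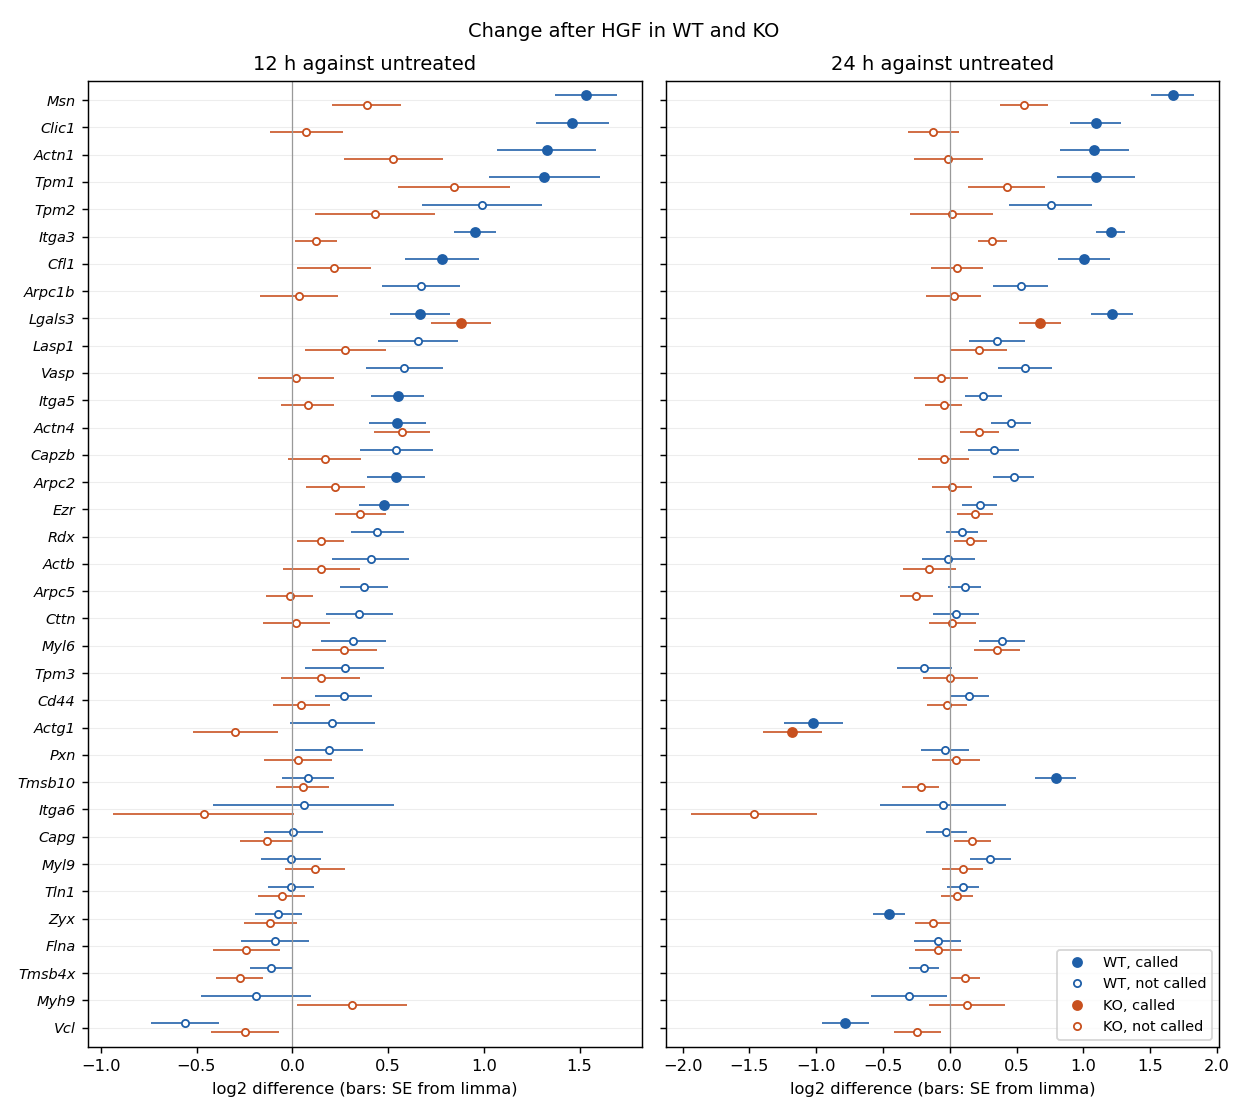
Change in log2 ratio from untreated to 12 h (left) and 24 h (right) of HGF for 35 of the 40 tested members, with WT in blue and KO in orange, SE from limma as bars and filled points for adjusted p under 0.05. Msn, Clic1, Actn1, Tpm1 and Itga3 lie furthest right among the filled WT points at 12 h, and Actg1 lies left of 0 in both genotypes at 24 h.

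The counts depended on single replicates. At 12 h in WT, 4 of the 11 calls remained without untreated WT replicate 3 or without both doubted replicates (Msn, Clic1, Actn1 and Itga3), 6 without 12 h replicate 2 and 7 without 12 h replicate 3. With only array set C in these groups, 9 of the 11 remained. At 24 h in WT, leaving out replicate 3 raised the count from 11 to 18, which held all 11, and without both doubted replicates it was 10.

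Between the genotypes, 4 members were called at 12 h, where all 6 replicates lie in array set C: Clic1, Msn and Itga3 were lower in KO and Lgals3 was higher. Over all probes 1.55% were called lower and 1.29% higher. At 24 h, 5 members were lower in KO (Clic1, Msn, Cfl1, Itga3 and Tmsb10) and 0 higher (8 and 3 at an unadjusted p under 0.05 in limma), beside 2.36% and 2.41% of all probes. This count was 3 without WT 24 h replicate 1, 8 without WT 24 h replicate 3 and 5 without both doubted replicates. Untreated, limma called 0 of the 40 members (6 higher and 1 lower at an unadjusted p under 0.05), beside 0.0617% of all probes. It called 1 without untreated KO replicate 3. At 0.5 h, Tpm2 was higher and Clic1 lower in KO, 1 member each way beside 2% and 2.3% of all probes, which is a share near the background. At 2 h limma called 0 members (5 higher and 1 lower unadjusted), beside 0.432%.

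**Figure D2:**
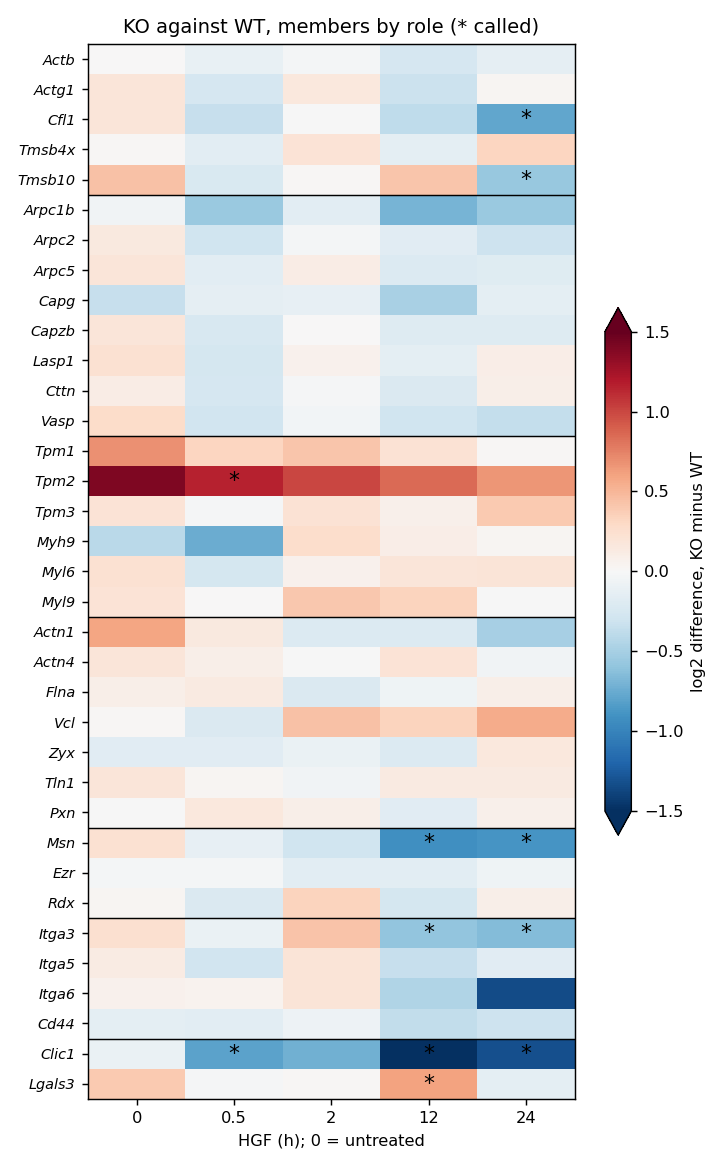
Log2 difference, KO minus WT, for 35 of the 40 tested members (rows, ordered by role and divided by lines) at the 5 times (columns), with asterisks at adjusted p under 0.05. Clic1 is blue at 0.5 h and later, Msn and Itga3 are blue with an asterisk at 12 and 24 h, and Tpm2 is red in every column. The dark cell of Itga6 at 24 h rests on 1 array.

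Averaged over the 5 times, 1 member was higher in KO (Tpm2) and 6 were lower (Clic1, Arpc1b, Msn, Cfl1, Capg and Cd44), beside 5.01% and 5.1% of all probes. The differences on the 2 dyes correlated at r = 0.44 over probes in this comparison, the highest r of any comparison made. Between the genotypes this r was 0.20 at 12 h and 0.23 at 24 h. Over time in WT it was -0.16 at 12 h and 0.16 at 24 h. For the difference of the responses it was -0.21 at 12 h and 0.03 at 24 h.

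Clic1, an intracellular chloride channel protein that binds membranes and actin-rich structures, was lower in KO than in WT at 0.5, 12 and 24 h of HGF. Its log2 ratios in WT were 0.08, 0.10 and -0.57 untreated, 0.28, 0.53 and 0.47 at 0.5 h, 0.34, 0.59 and 0.32 at 2 h, 1.22, 1.27 and 1.51 at 12 h and 1.18, 1.20 and 0.52 at 24 h. In KO they were -0.09, -0.31 and -0.30 untreated, -0.35, -0.48 and -0.29 at 0.5 h, -0.38, -0.19 and -0.35 at 2 h, -0.21, -0.26 and -0.01 at 12 h and -0.25, -0.01 and -0.81 at 24 h. The genotypes overlapped untreated and did not overlap at any HGF time. In WT, Clic1 rose 2.75-fold by 12 h (1.46 ± 0.19 SE, adjusted p = 7.2e-05) and 2.13-fold by 24 h (1.09 ± 0.19, adjusted p = 4.78e-04). In KO the change at 12 h was 0.07 ± 0.19, with a 95% interval of -0.32 to 0.47. Against WT, Clic1 in KO was 2.81-fold lower at 12 h (-1.49 ± 0.19, adjusted p = 5.26e-05), 2.50-fold lower at 24 h (-1.32 ± 0.19) and 1.74-fold lower at 0.5 h (-0.80 ± 0.19, adjusted p = 0.0178). Untreated the difference was -0.10 ± 0.19 and at 2 h -0.72 ± 0.19 (adjusted p = 0.0907), neither of which passed.

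The Clic1 calls at 12 h, in WT over time and between the genotypes, passed under every alternative run, with each single dye among them. The genotype difference at 0.5 h was -0.65 on Cy5 and -0.95 on Cy3 arrays, and its call was lost without WT 0.5 h replicate 2 or 3 (-0.75 and -0.78) or KO 0.5 h replicate 1 or 2 (-0.81 and -0.75). The RefSeq window at the Clic1 start site (GRCm38.p6, 250 bases before to 50 after the start, chr17:35049993-35050292, plus strand) is shown because Clic1 carried the clearest difference. Its capitals mark a match to the AP-1 site TGANTCA, 38 bases before the start. Of 27025 RefSeq promoters of this length, 7.93% hold the AP-1 site on either strand, as do the first listed windows of 4 of the 42 members in that table (Actn4, Clic1, Ezr and Zyx). A second window of Itga3 holds one too, 12 bases after the start. A match is a description of these letters, not a binding site.
Clic1: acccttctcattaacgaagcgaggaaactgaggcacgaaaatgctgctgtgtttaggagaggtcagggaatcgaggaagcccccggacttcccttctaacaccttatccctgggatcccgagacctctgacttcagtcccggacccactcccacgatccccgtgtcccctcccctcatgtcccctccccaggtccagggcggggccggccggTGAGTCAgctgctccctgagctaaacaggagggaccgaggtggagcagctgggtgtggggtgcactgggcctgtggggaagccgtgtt

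Moesin, radixin and ezrin form the family that links actin to membrane proteins. Msn ratios were -0.46, -0.37 and -1.13 in untreated WT cells, -0.28, -0.45 and -0.34 at 0.5 h, -0.09 and -0.23 at 2 h (no value for replicate 1), 0.92, 0.81 and 0.91 at 12 h, and 1.28, 0.83 and 0.94 at 24 h. In KO, Msn read -0.45 and -0.41 untreated and -0.50 and -0.40 at 2 h (replicate 3 missing in both), -0.57, -0.46 and -0.41 at 0.5 h, -0.23, -0.01 and 0.13 at 12 h, and 0.29, 0.19 and -0.10 at 24 h. All WT values of 12 and 24 h lay above every KO value. The WT change was 1.53 ± 0.16 at 12 h (adjusted p = 1.85e-05) and 1.67 ± 0.16 at 24 h (adjusted p = 5.51e-07). In KO it was 0.39 ± 0.18 (adjusted p = 0.563) and 0.56 ± 0.18 (adjusted p = 0.0961), neither of which passed. Msn was 1.89-fold lower in KO than in WT at 12 h (-0.92 ± 0.16, adjusted p = 0.00204) and 1.85-fold lower at 24 h (-0.89 ± 0.16, adjusted p = 0.00154). At 24 h that difference was -1.66 on the Cy5 and -0.12 on the Cy3 arrays. Over time in WT at 24 h it was 2.65 on Cy5 and 0.69 on Cy3, so these sizes rest mostly on the Cy5 arrays. On the Cy3 arrays alone no Msn call between the genotypes passed (-0.64 at 12 h), and with arrays scaled to a common spread the 12 h call was lost (-0.67).

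The other linkers moved less. Ezr, coding for ezrin, rose in WT at 12 h by 0.48 ± 0.13 (adjusted p = 0.0325), from 0.20, 0.13 and -0.05 to 0.77, 0.51 and 0.44. Its KO change was 0.35 ± 0.13 and did not pass (adjusted p = 0.377), and the difference of the responses was -0.12 ± 0.19. The Ezr call was lost without untreated WT replicate 2 or 3 (0.50 and 0.41), without 12 h replicate 1 or 2 (0.38 and 0.51), and within array set C (0.41, adjusted p = 0.0838). Rdx, coding for radixin, changed in WT by 0.44 at 12 h without passing.

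**Figure D3:**
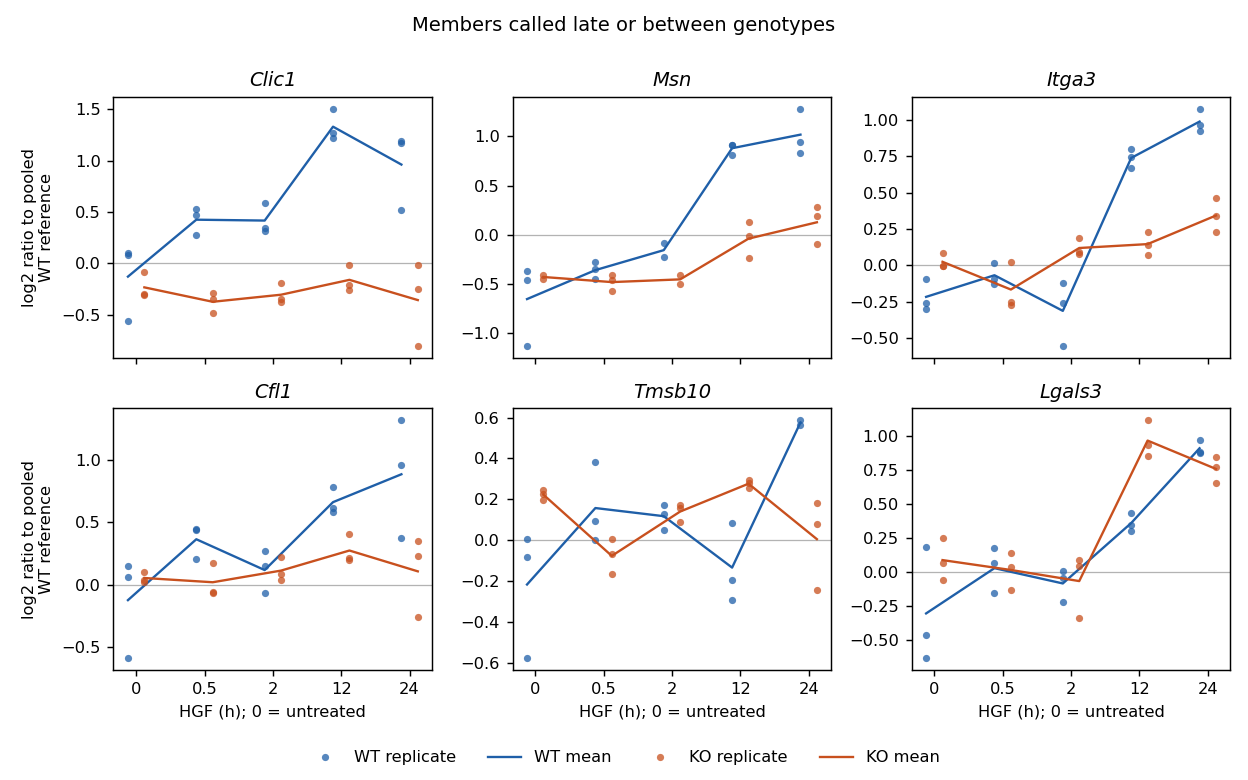
Log2 ratio to the pooled WT reference (vertical axes, 1 scale per panel) against HGF time (not to scale) for Clic1, Msn, Itga3, Cfl1, Tmsb10 and Lgals3, with replicates as points and group means as lines, WT in blue and KO in orange. The WT points of Clic1, Msn and Itga3 at 12 and 24 h lie above all KO points of the same time. Those of Lgals3 lie below KO at 12 h and above KO at 24 h.

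Among the integrins, which bind laminin, fibronectin and other matrix proteins, Itga3 separated the genotypes most clearly. Itga3 codes for a laminin-binding alpha subunit. Untreated WT replicates read -0.26, -0.09 and -0.30, those at 0.5 h 0.02, -0.09 and -0.13, those at 2 h -0.56, -0.26 and -0.12, those at 12 h 0.80, 0.67 and 0.75, and those at 24 h 1.08, 0.92 and 0.97. The KO replicates of Itga3 were -0.01, -0.01 and 0.09 untreated, -0.27, -0.25 and 0.02 at 0.5 h, 0.08, 0.19 and 0.09 at 2 h, 0.14, 0.07 and 0.23 at 12 h and 0.34, 0.46 and 0.23 at 24 h. At 12 and at 24 h the WT replicates lay close together, and all lay above KO. Untreated and at 2 h all WT replicates lay below KO, though neither difference was called. The higher untreated values in KO enter the differences of the responses given above. The WT rise was 1.94-fold at 12 h (0.96 ± 0.11, adjusted p = 2.13e-05) and 2.31-fold at 24 h (1.21 ± 0.11, adjusted p = 8.82e-08). In KO the change was 0.12 ± 0.11 at 12 h (adjusted p = 0.891) and 0.32 ± 0.11 at 24 h (adjusted p = 0.116). KO was below WT by 0.59 ± 0.11 at 12 h (KO minus WT -0.59, adjusted p = 0.0024) and by 0.65 ± 0.11 at 24 h (KO minus WT -0.65, adjusted p = 5.04e-04). These calls held without each replicate in turn. The genotype difference was not called on either dye alone at 12 h (-0.89 on Cy5 and -0.30 on Cy3) or at 24 h (-0.67 and -0.62), nor at 12 h with arrays scaled to a common spread (-0.33). At 2 h Itga3 was higher in KO by 0.43 ± 0.11 without passing (adjusted p = 0.0782).

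Itga5, an alpha subunit of the fibronectin receptor, rose in WT at 12 h, from 0.08, 0.04 and -0.31 to 0.44, 0.42 and 0.60 (0.55 ± 0.14, adjusted p = 0.0193). In KO it changed by 0.08 ± 0.14, and the difference of the responses did not pass (-0.47 ± 0.20, adjusted p = 0.70). The WT call of Itga5 was lost without untreated replicate 3 (0.43), 12 h replicate 2 (0.58) or 12 h replicate 3 (0.49). Itga6 passed in no comparison. Its difference of -1.35 ± 0.47 between KO and WT at 24 h came from KO replicate 2 at -3.88, which was -0.81 on the Cy5 array and -6.94 on the Cy3 array, beside -0.77 and -0.53 in the other KO replicates. Cd44, a hyaluronan receptor, was lower in KO averaged over time by 0.21 ± 0.07 (KO minus WT -0.21, adjusted p = 0.0428), and leaving out any of 22 of the 30 replicates in turn ended that call (-0.25 to -0.18 over all 30). Of the subunits without a test, Itgb1 read 0.03, 0.09 and -0.94 in untreated WT, 0.59, 0.52 and 0.71 at 12 h and 1.48, 0.93 and -0.51 at 24 h, and in KO at 24 h it read 0.06, 0.24 and -0.20. Itgb4 had 1 value in WT at 24 h (-0.10), beside 0.00 and 0.22 in KO. Cd9, a tetraspanin partner of integrins, had 3 values in a group only in WT at 12 h (0.35, 0.32 and -0.04).

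Actb and Actg1, the cytoplasmic beta- and gamma-actins, were high at 0.5 h and low at 2 h in both genotypes. Actb ratios in WT were 0.91, 0.95 and 1.00 at 0.5 h and -0.08, 0.07 and 0.03 at 2 h, and in KO 0.73, 0.86 and 0.95 against -0.03, 0.03 and -0.05. The groups of the 2 times lay far apart in both genotypes. Actg1 in WT fell from 1.58, 1.89 and 1.75 to 0.27, 0.43 and 0.09, and in KO from 1.36, 1.57 and 1.52 to 0.43, 0.51 and 0.33. The step from 0.5 to 2 h was a 1.93-fold drop for Actb (-0.95 ± 0.20, adjusted p = 0.00369) and a 2.78-fold drop for Actg1 (-1.48 ± 0.22, adjusted p = 2.97e-04) in WT. In KO it was 1.82-fold for Actb (-0.86 ± 0.20, adjusted p = 0.0373) and 2.09-fold for Actg1 (-1.06 ± 0.22, adjusted p = 0.0229). The genotypes were not called apart for either actin at 0.5 h, where KO minus WT was -0.11 for Actb (95% interval -0.52 to 0.30) and -0.25 for Actg1 (-0.71 to 0.20).

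The WT calls of Actb and Actg1 from 0.5 to 2 h passed under every alternative run, the mean of the Actg1 probes among them, though a further Actg1 probe taken alone was not called (-0.53, adjusted p = 0.152). The KO calls were lost without any 1 of the 6 replicates (Actb -0.92 to -0.81, Actg1 -1.12 to -1.02, adjusted p = 0.0765 to 0.144). In KO the differences of this step on the 2 dyes correlated at r = -0.585 over probes, and the step was -1.31 on Cy5 and -0.42 on Cy3 for Actb, and -1.52 and -0.60 for Actg1. Without the KO 2 h replicate of array set A the steps were -0.85 and -1.02. Untreated cells lie in other array sets than the 0.5 h cells, so a rise by 0.5 h and the array set cannot be told apart: Actg1 read 0.86 ± 0.22 in WT and 0.42 ± 0.22 in KO for that step (adjusted p = 0.113 and adjusted p = 1.00 in limma).

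The step from 0.5 to 2 h in WT held 9 members called lower and 0 higher (16 and 0 at an unadjusted p under 0.05 in limma), beside 10.1% and 4.47% of all probes. The median of the 40 members was -0.28, and that of all probes -0.05. Besides the actins, Myh9, the heavy chain of non-muscle myosin IIA, fell 2.53-fold (-1.34 ± 0.29, adjusted p = 0.00397), from 0.87, 1.00 and 1.22 to -0.55, -0.25 and -0.12. Tpm2, a tropomyosin that stabilises filaments, fell 2.06-fold (-1.04 ± 0.31, adjusted p = 0.0276). Capzb, which caps filament ends, fell by 0.59, the adaptor Vcl by 0.55, the linker Rdx by 0.43, the integrin subunit Itga5 by 0.42 and the monomer-binding Tmsb4x by 0.36. In KO, 2 members were called lower, Actb and Actg1, and 0 higher (5 and 1 unadjusted in limma), beside 0.405% and 0.466% of all probes. Tpm2 differed in KO by -1.19 ± 0.31 (adjusted p = 0.0658), and Myh9 by -0.32 ± 0.29, without passing. The Gapdh and Sdha probes, of the 9 housekeeping genes tested, fell in the same WT step by 0.82 and 1.13. The mean ratio of all 9 was 0.12 to 0.29 in WT at 0.5 h and -0.17 to 0.02 at 2 h, and in KO -0.13 to 0.10 and -0.07 to 0.04. Their part in the result was not tested.

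In WT all arrays of this step lie in set D. Leaving out 1 replicate left 3 to 6 of the 9 WT calls, with 6 without 0.5 h replicate 1, 3 without 0.5 h replicate 3 or 2 h replicate 1, 4 without 2 h replicate 3, and 5 without 0.5 h replicate 2 or 2 h replicate 2. Those of Actb, Actg1 and Myh9 remained each time, while those of Capzb and Tmsb4x were lost each time (adjusted p = 0.0647 to 0.16). Myh9 moved by -0.54 on the Cy5 arrays and by -2.15 on the Cy3 arrays. Tpm2 moved by -0.21 and -1.87.

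**Figure D4:**
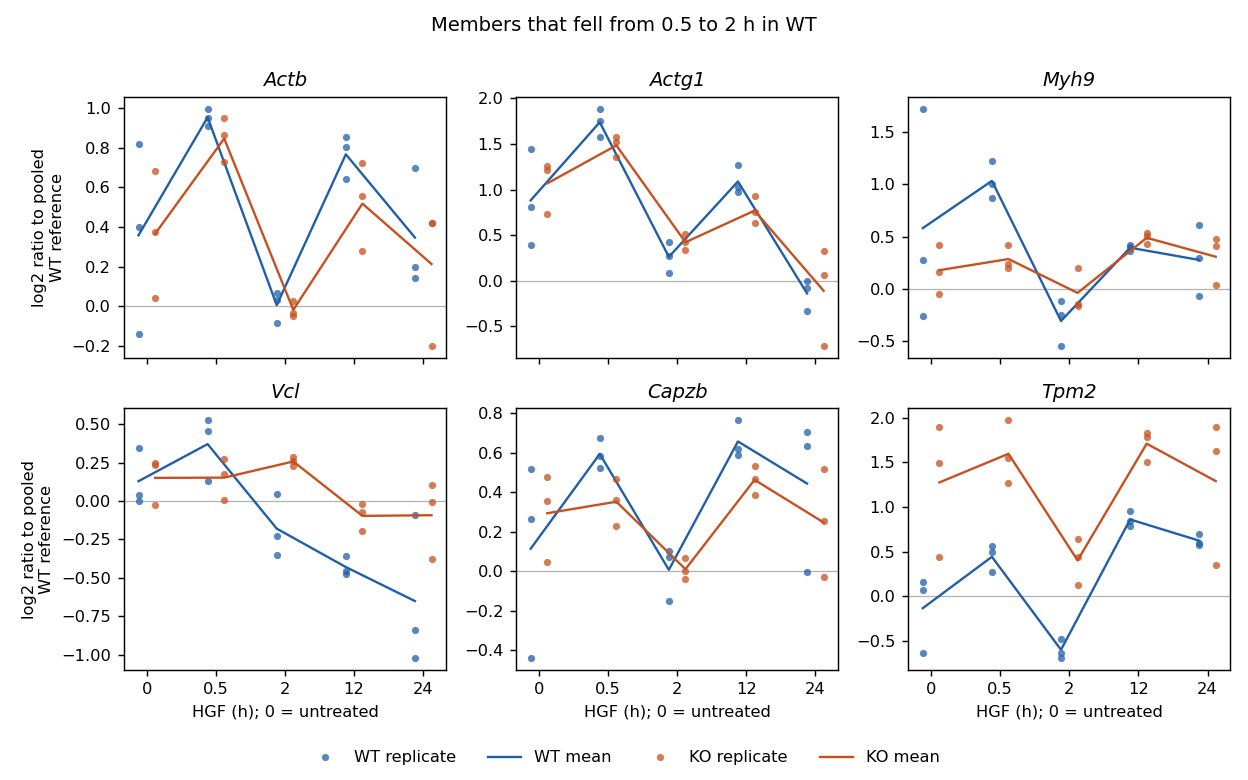
Log2 ratio to the pooled WT reference (vertical axes, 1 scale per panel) against HGF time (not to scale) for 6 of the 9 members that fell from 0.5 to 2 h in WT, with replicates as points and group means as lines, WT in blue and KO in orange. Actb and Actg1 drop at 2 h in both genotypes, and the group mean of Tpm2 lies higher in KO at each time.

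By 24 h Actg1 was lower than in untreated cells in both genotypes. WT fell from 1.45, 0.81 and 0.39 to 0.00, -0.08 and -0.34 (-1.02 ± 0.22, adjusted p = 0.00388), and KO from 1.25, 1.21 and 0.74 to 0.07, 0.32 and -0.72 (-1.18 ± 0.22, adjusted p = 0.0035). In neither genotype did the untreated and 24 h values of Actg1 overlap, and the difference of the responses was -0.16 ± 0.31. A further Actg1 probe gave -1.13 ± 0.25 in WT and -1.26 ± 0.25 in KO at 24 h, both called, but -0.53 ± 0.25 in WT and -0.96 ± 0.25 in KO from 0.5 to 2 h, neither called. Actb changed by -0.01 ± 0.20 in WT and -0.15 ± 0.20 in KO over 24 h. At 24 h Actg1 in WT was -0.53 on Cy5, where the call was lost, and -1.52 on Cy3. Vcl, which holds integrin adhesions to actin, was lower in WT at 24 h by -0.78 ± 0.18 (adjusted p = 0.00552), with -0.84, -0.09 and -1.02 beside 0.00, 0.35 and 0.04 untreated. Its call was lost without the replicates counted in sets A and B (-0.64, adjusted p = 0.0548). Zyx, an adaptor at stress fibres and adhesions, fell by 0.45 ± 0.12 (adjusted p = 0.0211), and that call was lost without untreated WT replicate 1 or 2 (-0.44 and -0.34) or 24 h replicate 1 or 2 (-0.43 in each). Zyx moved by -0.07 on Cy5, where the call was lost, and by -0.84 on Cy3. In KO, Vcl changed by -0.24 ± 0.18 and Zyx by -0.13 ± 0.14, neither past the threshold.

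The start sites of Actg1 and Vcl are shown because both genes fell from 0.5 to 2 h and by 24 h in WT and both windows hold a CArG box. These are RefSeq windows of GRCm38.p6, 250 bases before to 50 after the start, at chr11:120348446-120348745 (minus strand) for Actg1 and chr14:20929148-20929447 (plus strand) for Vcl. The capitals mark the CArG box, 90 bases before the Actg1 start and 227 before that of Vcl, and in Vcl also a match to the TEAD site GGAATG, 143 bases before the start. The CArG box was found in 1.57% of the 27025 promoters, searched on both strands, and in the first listed window of 3 of the 42 members in that table (Actg1, Myl9 and Vcl). A second window of Myl6 holds one too, 50 bases before the start. The TEAD site was in 14.6% of promoters and the first windows of 7 of the 42 members. Actb, Cttn, Itga6, Itgb4 and Pxn are among the members without an entry in that table.
Actg1: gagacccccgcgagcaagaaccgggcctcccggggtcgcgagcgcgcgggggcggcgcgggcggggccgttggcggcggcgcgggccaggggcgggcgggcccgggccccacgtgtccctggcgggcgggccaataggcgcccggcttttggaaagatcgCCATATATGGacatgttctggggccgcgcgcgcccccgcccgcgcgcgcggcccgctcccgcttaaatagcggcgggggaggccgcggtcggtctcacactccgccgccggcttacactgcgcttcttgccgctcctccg
Vcl: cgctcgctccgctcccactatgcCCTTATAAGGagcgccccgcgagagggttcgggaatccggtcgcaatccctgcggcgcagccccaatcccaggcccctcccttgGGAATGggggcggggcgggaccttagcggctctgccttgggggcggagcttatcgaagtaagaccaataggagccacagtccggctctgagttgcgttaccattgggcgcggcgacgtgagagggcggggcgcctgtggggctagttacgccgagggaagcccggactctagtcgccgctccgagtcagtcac
Myl9, a regulatory light chain of myosin II whose window also holds the CArG box, was not called in any comparison.

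Of the proteins that bind or sever actin, Cfl1, coding for cofilin, rose in WT by 0.78 ± 0.19 at 12 h (adjusted p = 0.0175) and by 1.01 ± 0.19 at 24 h (adjusted p = 0.00124). Its WT ratios were 0.15, 0.07 and -0.58 untreated, 0.58, 0.61 and 0.78 at 12 h and 0.96, 1.31 and 0.38 at 24 h, and KO at 24 h read 0.23, 0.35 and -0.26. KO stood 1.71-fold below WT at 24 h (-0.78 ± 0.19, adjusted p = 0.0174). The 12 h call of Cfl1 was lost without untreated WT replicate 3 (0.55) or 12 h replicate 2 or 3 (0.81 and 0.72), and the genotype call was lost without WT 24 h replicate 1 or 2 (-0.74 and -0.56) or KO 24 h replicate 3 (-0.59). At 12 h in WT, Cfl1 moved by 1.25 on Cy5 and by 0.31 on Cy3, where the call was lost. Its genotype difference at 24 h was -0.43 on Cy5, where the call was lost, and -1.12 on Cy3. Averaged over time the genotype difference was -0.27 ± 0.09 (adjusted p = 0.0491), lost without any of 22 of the 30 replicates in turn (-0.32 to -0.22 over all 30).

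The thymosins bind actin monomers. Tmsb10 rose in WT only at 24 h, with 0.57 and 0.59 (replicate 3 missing) beside -0.08, 0.01 and -0.58 untreated and -0.29, -0.19 and 0.08 at 12 h (0.79 ± 0.15 at 24 h, adjusted p = 0.00148). That rise was 1.33 on Cy5 and 0.21 on Cy3, where the call was lost. In KO, Tmsb10 read 0.20, 0.24 and 0.23 untreated, 0.28, 0.26 and 0.29 at 12 h, and 0.18, -0.24 and 0.08 at 24 h. So Tmsb10 stood higher in KO than in WT before HGF and lower at 24 h, by 0.44 ± 0.14 (adjusted p = 0.53) and -0.57 ± 0.15 (adjusted p = 0.03). The 24 h genotype call was lost without WT 24 h replicate 1 or 2 (-0.58 and -0.56), without KO 24 h replicate 2 (-0.45), and with array set as a term (-0.50, adjusted p = 0.0517). That genotype call was also lost on either dye alone (-0.44 on Cy5 and -0.66 on Cy3), without median centring and with arrays scaled to a common spread. It was lost as well where 1 dye orientation was enough, with only the groups compared, with weights and without both doubted replicates. The related Tmsb4x was not called between the genotypes at any time. Pfn1, coding for profilin, had no test and read -0.02 and -0.01 in WT at 24 h beside 0.00, 0.03 and 0.11 untreated.

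Of the Arp2/3 complex, which nucleates branched filaments, Arpc1b was lower in KO averaged over time (-0.40 ± 0.09, adjusted p = 0.00451). Its WT means were highest at 12 h, where the replicates read 0.47, 0.50 and 0.58 beside -0.03, -0.40 and -0.10 in KO (-0.69, adjusted p = 0.067, not called at that time). That averaged call held without each of the 30 replicates in turn, but was lost on the Cy5 arrays alone (-0.41, beside -0.39 on Cy3). Arpc2 was called higher in WT at 12 h by 0.54 ± 0.15 (adjusted p = 0.0368), but read 1.15 on the Cy5 and -0.07 on the Cy3 arrays, so its direction was not shared by the dyes. That call of Arpc2 was also lost without untreated WT replicate 3 (0.38) or any 1 of the 3 12 h replicates (0.59, 0.56 and 0.47). Capg, a capping protein, was lower in KO averaged over time by -0.25 ± 0.06 (adjusted p = 0.0149), a call lost without WT 0.5 h replicate 1 (adjusted p = 0.0504). The Capg call was also lost on either dye alone and with weights. Arpc5, Capzb, Lasp1, Cttn and Vasp were called neither late in WT nor between the genotypes. Of these, Lasp1 changed by 0.66 (adjusted p = 0.064) and Vasp by 0.58 (adjusted p = 0.085) in WT at 12 h.

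Tpm2 had a higher mean in KO than in WT at each of the 5 times, called at 0.5 h and averaged over time. Its ratios in KO were 1.89, 1.49 and 0.44 untreated, 1.26, 1.55 and 1.97 at 0.5 h, 0.64, 0.44 and 0.13 at 2 h, 1.83, 1.79 and 1.503 at 12 h and 1.90, 1.62 and 0.35 at 24 h. In WT they were 0.08, 0.16 and -0.63, 0.27, 0.57 and 0.49, -0.69, -0.47 and -0.63, 0.79, 0.84 and 0.95, and 0.60, 0.70 and 0.57 at the same times. The genotypes overlapped only at 24 h, through KO replicate 3. The difference was 1.41 ± 0.31 untreated (adjusted p = 0.112), 1.00 at 2 h, 0.85 at 12 h and 0.67 ± 0.31 at 24 h (adjusted p = 0.241), none of them called, and at 0.5 h it was called (1.15 ± 0.31, adjusted p = 0.0361). The responses at 24 h differed by -0.74 ± 0.44 without passing (adjusted p = 0.514). Averaged over time Tpm2 was 2.02-fold higher in KO (1.01 ± 0.14, adjusted p = 2.39e-05), with 1.11 on the Cy5 and 0.92 on the Cy3 arrays, and this call passed under every alternative run. The call at 0.5 h alone was lost without any of the 3 WT replicates (1.07, 1.21 and 1.18) or KO replicate 2 or 3 (1.17 and 0.96). It was 1.87 on Cy5 and 0.43 on Cy3.

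Tpm1, in contrast, rose in WT and was not called between the genotypes. In WT it went from 0.77, 0.25 and -0.48 to 1.43, 1.42 and 1.64 at 12 h (1.31 ± 0.29, adjusted p = 0.00847) and to 1.72, 1.60 and 0.51 at 24 h (1.10 ± 0.29, adjusted p = 0.0174), where the groups overlap. KO read 1.09, 0.89 and 0.62 untreated and 1.58, 1.68 and 1.87 at 12 h, a change of 0.84 ± 0.29 that did not pass (adjusted p = 0.31). The difference of the responses was -0.47 ± 0.41, with a 95% interval of -1.32 to 0.38. Both WT calls of Tpm1 were lost without untreated WT replicate 3 (0.98 and 0.76), and the 24 h call also without 24 h replicate 1 or 2 (0.87 and 0.94). Myl6 and Myl9 were not called in any comparison. Neither was the probe read for Tpm3, but its probes disagree: of 2 further probes, 1 was called higher in WT at 12 h (0.78, adjusted p = 0.0101) and 24 h (0.68, adjusted p = 0.0157) and lower in KO averaged over time (-0.27, adjusted p = 0.0272), and the other was not called.

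The alpha-actinins cross-link filaments. Actn1 rose 2.51-fold in WT by 12 h (1.33 ± 0.26, adjusted p = 0.00375), from 0.44, -0.01 and -0.71 to 1.16, 1.14 and 1.40, and stood 2.12-fold higher at 24 h (1.08 ± 0.26, adjusted p = 0.00813) at 1.16, 1.16 and 0.63. In KO it read 0.72, 0.52 and 0.24 untreated and 0.75, 1.17 and 1.15 at 12 h (0.53 ± 0.26, adjusted p = 0.604). At 12 h the genotypes overlapped, and the response differed by -0.80 ± 0.36 (adjusted p = 0.762). The 24 h call of Actn1 was lost without untreated WT replicate 3 (0.77). Actn4 rose in WT by 0.55 ± 0.15 at 12 h (adjusted p = 0.0293) and changed in KO by 0.57 ± 0.15 (adjusted p = 0.122), so WT passed and KO did not at nearly the same size. Its WT call was lost without untreated replicate 3 (0.40), 12 h replicate 2 (0.57) or 12 h replicate 3 (0.45), and a further Actn4 probe gave 0.75 ± 0.13 in WT (adjusted p = 0.00185) and 0.37 ± 0.13 in KO. On the probe read for Actn4 the WT change was 1.02 on Cy5 and 0.08 on Cy3, where the call was lost. The filament cross-linker Flna and the adhesion proteins Tln1 and Pxn were not called in any comparison.

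Lgals3 was the 1 member called higher in both genotypes. It codes for galectin-3, a lectin that binds integrins and other surface glycoproteins. WT ratios were -0.47, 0.18 and -0.63 untreated, 0.43, 0.30 and 0.34 at 12 h and 0.87, 0.98 and 0.89 at 24 h. KO ratios were 0.07, -0.06 and 0.25 untreated, 0.94, 1.12 and 0.85 at 12 h and 0.77, 0.85 and 0.66 at 24 h. KO had reached its 24 h range by 12 h, and WT had not. The rise in KO was 0.88 ± 0.16 at 12 h (adjusted p = 0.0179) and 0.67 ± 0.16 at 24 h (adjusted p = 0.0182), and in WT 0.67 ± 0.16 (adjusted p = 0.0136) and 1.22 ± 0.16 (adjusted p = 1.29e-05). At 12 h Lgals3 was 1.52-fold higher in KO (0.61 ± 0.16, adjusted p = 0.0329), a call lost without any 1 of the 6 replicates (0.53 to 0.67, adjusted p = 0.0534 to 0.13). The difference of the responses at 12 h was 0.22 ± 0.22 and did not pass.

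Of the Lgals3 rises, that of WT at 12 h was 1.38 on Cy5 and -0.05 on Cy3 and was lost without untreated WT replicate 3 (0.50) or 12 h replicate 1 (0.63). Both KO calls were lost without untreated KO replicate 1 or 2, and also without 12 h replicate 2 or 24 h replicate 2 (0.81 to 0.87 at 12 h and 0.60 to 0.66 at 24 h). Vim, coding for the filament protein vimentin and found in mesenchymal cells, could not be tested. It had no value in WT at 12 h, 0.39, 1.72 and 1.13 in WT at 24 h, and 0.64, 0.09 and 0.42 in KO at 24 h. Iqgap1, a scaffold that binds actin, read 0.35 and 0.30 in WT at 12 h beside 0.13, -0.01 and 0.20 in KO.

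At the early times against untreated cells no member was called. Of all probes, 0.123% were called at 0.5 h and 0.446% at 2 h in WT, and 0.00686% and 0.0343% in KO. At the looser unadjusted p under 0.05 in limma, 13 of 40 members passed at 0.5 h in WT, all higher, and 7 at 2 h. In KO it was 3 at 0.5 h and 2 at 2 h. The share of all probes at that looser threshold is not given here, so those counts have no background beside them. The WT median at 0.5 h was 0.30, beside 0.04 for all probes, but these comparisons cross array sets, so the set and the time cannot be told apart. At 0.5 h in WT, limma called 1 member without untreated replicate 1 and 3 without replicate 2, and at 2 h it called 2 without untreated replicate 3.

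A further 77 genes of the same machinery, of which 55 were tested, were read the same way. In WT 4 rose and 1 fell at 12 h (2.65% and 3.16% of all probes), led by Itgav, an integrin subunit (1.37 ± 0.30), and Ilk, the integrin-linked kinase (0.87 ± 0.21). At 24 h 3 rose and 2 fell (3.96% and 4.76%), among them Itgav (1.17), the kinase Src (0.68) and, lower, Lcp1 (-0.86) and Cfl2 (-0.53). In KO limma called 0 at 12 h (5 at an unadjusted p under 0.05) and 2 lower at 24 h (2.94%). Between the genotypes at 24 h, the integrin subunit Itgb5 (0.57) was among 3 genes higher in KO, and Cap1 (-1.56) and the collagen-binding integrin subunit Itga2 (-1.34) led 4 lower (2.41% and 2.36%). From 0.5 to 2 h in WT limma called 7 lower and 0 higher (15 and 3 unadjusted), a share of 12.7% lower near the 10.1% of all probes, with Tagln2 (-1.01) and Bcar1 (-0.88) furthest. None of the 55 was called for a difference between the responses by limma, at 12 or 24 h (3 and 12 unadjusted).

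Markers of other liver cells were read beside these results. Of 6 bile duct markers tested, Krt7 and Cldn4 rose in WT at 12 h (0.69 and 0.83) and 24 h (0.61 and 1.10), Cftr fell (-1.15 and -1.09), and Krt7 and Cldn4 had a smaller response in KO at 24 h (-0.97 and -1.36), as Clic1, Msn, Itga3 and Tmsb10 did. The mean log2 ratio of the 6 ranged from -0.32 to 0.23 over the WT 24 h replicates and from -0.59 to -0.15 in KO, and from -0.34 to 0.00 in untreated WT. Of the 6 stellate cell markers tested, Col3a1 fell in WT at 12 and 24 h (-0.80 and -0.79), and Acta2, itself an actin, was higher in KO averaged over time (0.26). The mean ratio of the 6 in WT was -0.21 to 0.18 untreated, -0.33 to -0.28 at 12 h and -0.28 to -0.08 at 24 h. Mean ratios of 4 endothelial markers did not overlap between the genotypes at 0.5 h (-0.01 to 0.07 in WT and -0.41 to -0.38 in KO) or at 12 h (-0.03 to 0.18 and -0.52 to -0.36). At 24 h the endothelial means were -0.37 to 0.04 in WT and -0.74 to -0.23 in KO. At 0.5 h the genotypes also did not overlap for the bile duct, Kupffer cell, lymphocyte and red blood cell markers and the housekeeping genes. Bile duct means were then 0.08 to 0.16 in WT and -0.32 to -0.21 in KO. Those of the hepatocyte and stellate cell markers overlapped at 0.5 h. At 12 h the bile duct and stellate cell means did not overlap, and those of the remaining lists did. Dnase1l3 was lower in KO at 12 h (-1.32) and 24 h (-0.89). Of 7 Kupffer cell markers, Mpeg1 fell in WT at both late times (-1.02 and -1.52) and was higher in KO than in WT at 24 h (1.23), and Marco fell at 24 h in both genotypes (-0.77 and -0.59). The mean ratio of the 7 at 24 h overlapped between the genotypes, at -0.58 to -0.40 in WT and -0.50 to -0.15 in KO. Untreated it was -0.24 to 0.07 and -0.01 to 0.00. Of the 9 housekeeping genes, Rpl13a rose in WT (0.66 and 0.82) and was lower in KO at 24 h (-0.63). The markers of these lists not named here are not reported singly, and the named ones do not stand for their lists. The part of the markers in the members' results was not tested.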

How the data were processed

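Dual-colour arrays compared hepatocyte RNA with a pooled WT hepatocyte reference, in 30 replicates of 10 groups, each with both dye orientations, per the labels. As deposited, each probe has a normalized log2 ratio on each array; the normalization method, the log base and the numerator are not given in the sources used here, and log2 was inferred from the range of the values (largest absolute value 11.608). Of the values, 6.01% were missing. Symbols came from the platform annotation, updated through RefSeq: 16076 probes had 1 symbol (15877 updated, 199 kept), 288 several and 5633 none, of 21997.

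Each array was centred on its median (-0.154 to 0.144), and the dye pair was averaged. A probe was tested with values from at least 2 of 3 replicates in each group (14580 probes, 66.3%). limma 3.58.1 in R 4.3.3 with statmod 1.5.0 fitted 1 mean per group (20 residual degrees of freedom, 4.48 prior), two-sided, with Benjamini-Hochberg adjustment over all tested probes and a threshold of 0.05. The fit used no block. An alternative took the repeat number as a block, a random one for the KO against WT comparisons (block correlation -0.0023). Replicates came from individual mice, per the labels. The fitting was tested on simulated data.

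Members and lists were chosen with earlier results of these data known. The counts cover all tested members, of which 5 are not reported singly here. Shares of all probes are at the adjusted threshold, also where a member count at an unadjusted p stands beside them. Called members are named with values, and at most 2 called related genes in each direction. Alternatives changed centring, scaling, dye use, probe filter, probe of a gene, samples, weights, array set, block, 1 array's sign and the replicates included. The 12 h samples were grouped by title, since their treatment field gives 0.5 h. A further label gives the dose in nM. Promoters were taken from RefSeq (GRCm38.p6), with 42 members matched.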

Additional observations from a re-analysis of the deposited data

Results flagged for a closer look

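The HGF responses of 4 members were called different between the genotypes by the test of the difference itself, KO minus WT, in limma. For Clic1 the difference was -1.39 ± 0.27 (SE) at 12 h and -1.22 ± 0.27 at 24 h. For Itga3 it was -0.83 ± 0.16 at 12 h and -0.89 ± 0.16 at 24 h. For Msn at 24 h it was -1.11 ± 0.24, with -2.03 on the Cy5 and -0.20 on the Cy3 arrays. For Tmsb10 at 24 h it was -1.01 ± 0.21. Each of these calls was lost on the Cy3 arrays alone, with arrays scaled to a common spread and with only the groups compared.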

How the results depend on the processing

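Counts of members called are given for each setting that moved them by over 1.5 times, and the cause was not tested. With arrays scaled to a common spread the KO against WT counts were 1 untreated, 6 at 2 h and 2 at 12 h, those over time in WT 1, 3 and 5 at 0.5, 2 and 12 h, those in KO 3 at 12 h and 1 at 24 h, that from 0.5 to 2 h in KO 1, and those for the difference of responses 0 and 0. On Cy5 arrays only they were 1 untreated, 1 at 0.5 h and 4 averaged for KO against WT, 2 and 19 for WT at 2 and 12 h, 0 and 1 for KO at 12 and 24 h, 5 (WT) and 6 (KO) from 0.5 to 2 h, and 1 and 1 for the differences. On Cy3 arrays only they were 1, 2 and 4 for KO against WT at 12 h, 24 h and averaged, 2, 5 and 7 for WT at 2, 12 and 24 h, 0 and 1 for KO at 12 and 24 h, 5 from 0.5 to 2 h in KO, and 0 and 0 for the differences. Array set as a term gave 1, 2, 10, 9 and 11 for KO against WT untreated, at 2, 12 and 24 h and averaged, 18 for WT at 24 h, 2 and 4 for KO at 12 and 24 h, and 17 (WT) and 6 (KO) from 0.5 to 2 h. Without array sets A and B they were 1, 5, 2, 11 and 8 for KO against WT at the 5 times, 10 for WT at 2 h, 4, 2 and 5 for KO at 2, 12 and 24 h, 17 and 6 from 0.5 to 2 h, and 1 for the 12 h difference. With only the groups compared they were 4, 2 and 0 for KO against WT at 0.5, 2 and 24 h, 3 and 2 for WT at 12 and 24 h, 0 and 0 for KO, 17 and 4 from 0.5 to 2 h, and 0 and 0 for the differences. Weighting by group spread gave 5, 6 and 1 for KO against WT at 0.5, 2 and 24 h, 7 for WT at 24 h, 2 and 1 for KO at 12 and 24 h, 21 and 6 from 0.5 to 2 h, and 0 for the 24 h difference. Without both doubted replicates, chosen after seeing the data, they were 1 for KO against WT at 2 h, 2 and 4 for WT at 2 and 12 h, 2 for KO at 12 h, 14 from 0.5 to 2 h in WT, and 0 and 2 for the differences. Values in all 30 replicates gave 3 for KO against WT at 24 h and 2 for that difference. Turning the sign of 1 array gave 3 and 6 for WT at 2 and 12 h, and 0 and 1 for the differences. No probe filter gave 1 from 0.5 to 2 h in KO and 1 for the 12 h difference, and 1 dye orientation gave 1 there. The repeat numbers did not pair the samples in most groups (1 or 2 of 10 pairs of groups per number correlated above 0.1, with median r of -0.075 to 0.01). The highest r of a pair was 0.39, 0.448 and 0.667 for WT repeats 1, 2 and 3, and 0.168, 0.18 and 0.26 for those of KO. With the replicate block 0 differences were called at 12 h, and 13 members for WT at 12 h. Leaving out each replicate in turn gave 0 to 1 for KO against WT untreated and at 0.5 h, 0 to 0 at 2 h, 3 to 3 at 12 h, 3 to 8 at 24 h and 5 to 8 averaged. It gave 0 to 3, 0 to 2, 4 to 14 and 9 to 18 for WT at 0.5, 2, 12 and 24 h, 0 to 0, 0 to 0, 0 to 1 and 1 to 4 for KO, 3 to 8 (WT) and 0 to 0 (KO) from 0.5 to 2 h, and 0 to 3 and 2 to 5 for the differences. On Cy3 arrays only, Arpc2 (-0.068) and Lgals3 (-0.051) in WT at 12 h reversed. The ratios carry no spot intensity, so signal over background is unknown.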
